A study of Mus musculus with 12 samples.

Results

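The 33 genes described here encode the subunits of the Mediator complex, out of 15651 genes in the table. The rule that picked them reads names and no measured value, and it was set with earlier results of these data known. It takes mouse symbols, looked up from the Ensembl identifiers, that read Med followed by a number and an optional letter, together with Cdk8, Cdk19 and Ccnc. All 33 are protein-coding and each is listed once. By their place in the complex, 11 were assigned to the head, 9 to the middle, 5 to the tail and 7 to the kinase module, and Med14 is the backbone that joins head, middle and tail. Published structures differ on the place of some subunits, among them Med19 and Med27 to Med30, so counts by module depend on this assignment.

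RNA was sequenced from leukemic splenocytes enriched for c-Kit+ cells, taken from moribund mice with acute myeloid leukemia (AML). D/F mice carry Dnmt3a fl/fl, T/F mice carry Tet2 fl/fl, and both carry Flt3 ITD/ITD, an activating duplication in a receptor tyrosine kinase, and Mx1-Cre. No pIpC was given to induce the Cre, so the floxed alleles were lost spontaneously, and a cell may have lost only a single allele. Cells of each of 3 D/F mice and 3 T/F mice were cultured with SCF, IL-6 and IL-3, and were exposed for 6 h to CCS1477 (inobrodib, a p300/CBP bromodomain inhibitor) at 4 μM in D/F or 2 μM in T/F, or to DMSO. Dose differs with genotype throughout, so the effects of dose and of genotype on a response cannot be told apart.

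Mediator carries signals from transcription factors and coactivators at enhancers to RNA polymerase II at promoters. The head and middle contact the polymerase and are needed at most genes, while the tail, and Med1 of the middle, bind transcription factors and nuclear receptors. The kinase module, formed by Cdk8 or its paralog Cdk19 with cyclin C (Ccnc), Med12 or Med12l, and Med13 or Med13l, docks reversibly and keeps the core complex from the polymerase. p300 and CBP act at the same enhancers, and Mediator-rich enhancers are known to support growth genes in AML.

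Values are TPM, transcript abundance scaled for transcript length and for the library total. TPM is relative to all RNA of a library, with no spike-in recorded, and in these bulk samples fewer cells of a type and less RNA per cell cannot be told apart. The read depth behind each TPM is unknown. D/F replicate 2 stood apart: its log2(TPM + 1) values correlated with those of the other D/F mice at r = 0.947 to 0.958, against 0.978 to 0.991 for the other pairs within groups. Its DMSO library held more Kit (149 against 50.5 and 60.9 TPM) and less of 6 mature neutrophil markers (2240 against 7372 and 4961 TPM summed) than the other D/F mice. With DMSO the neutrophil markers summed to 2240 to 7372 TPM in D/F and 2029 to 6112 TPM in T/F. With CCS1477 they summed to 1298 to 7336 TPM in D/F and 2124 to 5578 TPM in T/F, so the treatments overlapped. Of these markers Camp, Mmp8 and Ly6g were lower with CCS1477 in every mouse, while S100a8, S100a9 and Ltf went either way between mice. The summed level of 10 myeloid leukemia markers was 3450 to 8970 TPM (D/F) and 3791 to 5706 TPM (T/F) with DMSO, and with CCS1477 it was 909 to 3899 TPM (D/F) and 1569 to 2718 TPM (T/F). Ptprc, the pan-leukocyte marker among these 10, was at only 0.826 to 3.11 TPM. Of the markers of other cells, the listed ones summed to 17.5 to 48.1 TPM for T cells (4 of 6 listed) and 10.8 to 27.7 TPM for erythroid cells (5 of 6), where the treatments overlapped in both genotypes. The summed markers of 3 other cell types were lower with CCS1477 without overlap in either genotype. Those of macrophages (4 of 5) summed to 16.0 to 22.3 TPM with DMSO and 2.72 to 4.31 TPM with CCS1477 in D/F, and to 19.3 to 32.1 TPM and then 5.93 to 12.3 TPM in T/F. Those of mast cells and basophils (3 of 4) summed to 87.0 to 182 TPM and then 17.8 to 40.3 TPM in D/F, and to 39.7 to 78.9 TPM and then 18.1 to 38.2 TPM in T/F. B cell markers (Cd79b and Pax5) summed to 10.8 to 23.2 TPM and then 4.13 to 9.54 TPM in D/F, and to 16.8 to 20.5 TPM and then 11.3 to 14.2 TPM in T/F. Cd3e, Cd3g, Cd79a, Ms4a1, Hba-a1, Fcer1a and C1qa were not analysed here. The summed markers of these 3 cell types fell in level beside the Mediator changes given below, and their part in the Mediator values was not tested. Dnmt3a was at 29.3 to 55.7 TPM in D/F libraries and Tet2 at 24.6 to 35.8 TPM in T/F libraries, so transcripts of neither targeted gene were absent. With DMSO the mean of Dnmt3a was 39.4 TPM in D/F and 45.3 TPM in T/F, and that of Tet2 was 41.2 and 33.4 TPM. TPM of a whole gene does not separate transcripts of intact and deleted alleles, so these values do not measure the deletion.

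All Mediator genes were transcribed in every library, at a narrow range of levels. Over the 6 DMSO libraries the median member was at 37.4 TPM, against 17.6 TPM for the median gene of the table, and 22 of the 33 lay between 20 and 60 TPM. The highest mean was that of Med21, a small subunit of the middle module, at 106 ± 27.0 TPM (SD, n = 6). It was followed by Med1, at 85.2 TPM, and Med8 of the head, at 83.8 TPM. Med31 was lowest at 10.4 TPM, next to Med12l at 10.9 TPM and the tail subunit Med23 at 11.8 TPM. Levels of neighbouring genes in this order overlapped between mice at both ends, since Med21 ranged down to 57.2 TPM in D/F replicate 2 while Med1 reached 90.1 TPM there. Med12l varied most between mice, with a coefficient of variation of 61.2%: it was at 24.4 TPM in D/F replicate 2 and at 7.31 to 9.05 TPM in the other 5 mice. Med21 came next, at 25.3%, and its lowest value was also in D/F replicate 2.

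**Figure D1:**
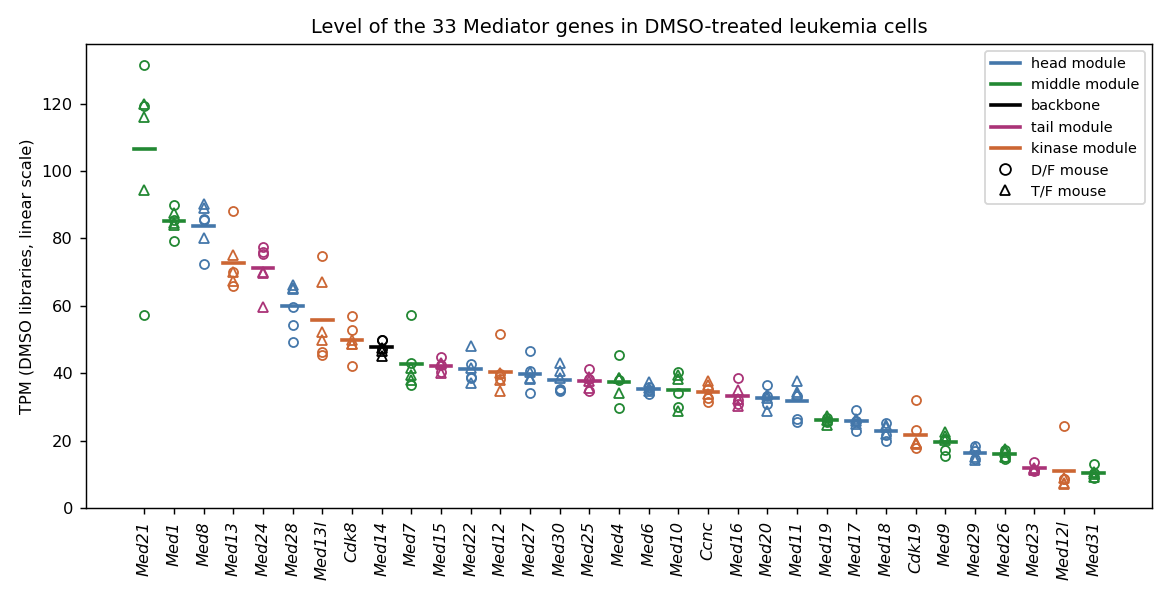
TPM of each Mediator gene in the 6 DMSO libraries (y axis, linear), ordered by mean (bars) and colored by module, with circles for D/F mice and triangles for T/F mice. Means run from 10.4 TPM for Med31 to 106 TPM for Med21, and the single low circle of Med21 and the single high circle of Med12l are D/F replicate 2.

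CCS1477 raised some Mediator genes and lowered others, and the share of members that passed was near that of all genes in T/F and over both genotypes and lower in D/F. In limma on log2(TPM + 1), with p-values adjusted over all genes tested by the Benjamini-Hochberg method, 18 of the 33 members (54.5%) passed an adjusted p of 0.05 over both genotypes, where 45.3% of all genes passed. Of these 18 members 13 rose (39.4% of members, against 25.8% of all genes) and 5 fell (15.2% against 19.6%). In T/F alone 15 members (45.5%) passed, against 43.4% of all genes, and 10 of them rose and 5 fell. In D/F alone 1 member passed, Med31, which is 3.03% against 11.6% of all genes. All 15 members that passed in T/F also passed over both genotypes, as did Med11, Med19 and Med28, which passed in neither genotype alone. The median log2 fold change of the members was 0.15 in D/F, 0.14 in T/F and 0.11 over both, against 0.06, 0.07 and 0.07 for all genes. No member was called above 2-fold in limma without the mouse as a block (a term for each mouse), a count of 0 in D/F, T/F and both, against 7.28%, 7.33% and 8.8% of all genes. Without a fold limit 6, 20 and 20 members had an unadjusted p under 0.05, against 30.4%, 51.7% and 52.1% of all genes. With the mouse as a block 1 member, Med21, passed above 2-fold in D/F, where 11.2% of all genes did (log2 fold change -1.07, SE 0.13, adjusted p = 0.0097 from limma).

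Treated and control cells with the same number came from the same mouse. With the mouse as a block 8 members passed in D/F rather than 1, in a fit where 39.3% of all genes passed. These were Med31, Med10, Ccnc, Med30 and Med13, which rose, and Med21, Cdk8 and Med8, which fell. With the block and without D/F replicate 2 the count was 7, where 33% of all genes passed: Med8, Med13 and Ccnc were lost, and Med11 and Cdk19 were gained. The corresponding counts with the block were 16 in T/F (54.1% of all genes) and 21 over both genotypes (60.3%). Without the block the D/F count varied with the mouse left out. It was 0 without replicate 1 or without replicate 3. No gene of the table passed in those fits, so they show nothing particular to the members. Without replicate 2 the count was 4 (Med31, Med10 and Med11 higher, Med21 lower), where 24.6% of all genes passed. In T/F 4 members passed without replicate 1, 4 without replicate 2 and 8 without replicate 3, in fits where 22.8%, 20.9% and 33.7% of all genes passed, and Med21, Cdk8 and Cdk19 passed each time. Over both genotypes 13 to 20 members passed with a mouse left out, against 40%, 55.4% and 38.7% of all genes without D/F replicates 1, 2 and 3 and 36.3%, 36.5% and 37.1% without those of T/F, and the calls lost without at least 1 of the mice were those of Med11, Med14, Med16, Med19 and Med28. Scaling each library to its median gene gave 9 rises and 6 falls over both genotypes, in place of 13 and 5, with 45.2% of all genes called. Under this scaling Med14, Med19, Med27 and Med28 no longer passed and Med26 was called lower.

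Many members moved the same way in every mouse, as many genes of the table did. CCS1477 and DMSO groups did not overlap for 14 members in D/F (9 higher and 5 lower, 42.4%, against 36.6% of all genes) and for 26 members in T/F (19 higher and 7 lower, 78.8%, against 56.1% of all genes). For 20 members (60.6%) the comparison of treated with control cells of each mouse gave the same direction in all 6 mice, 14 higher and 6 lower, against 56% of all genes. The smallest p that exact permutation of 3 against 3 mice allows is 0.1. Fold changes on the log2(TPM + 1) scale understate the change of genes with low TPM.

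**Figure D2:**
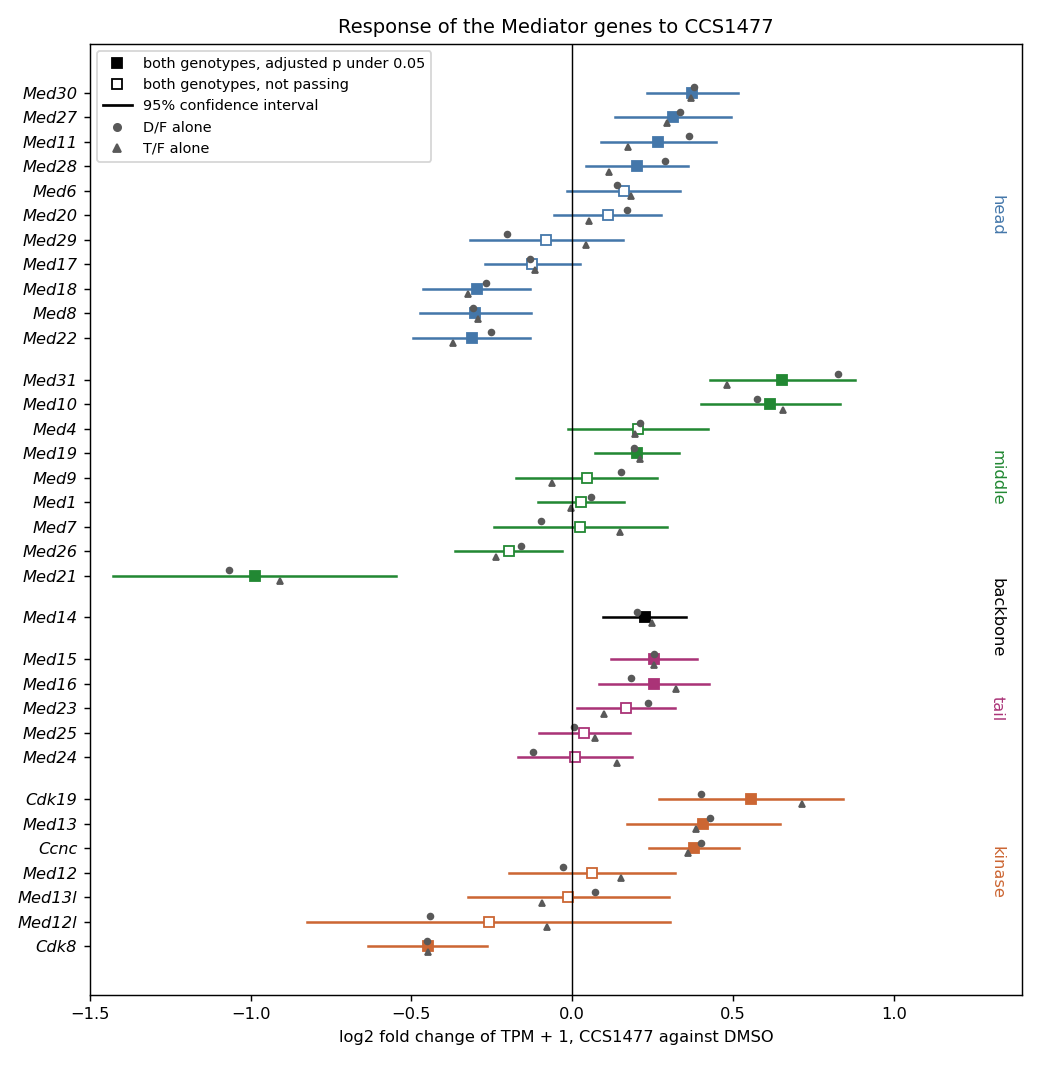
Log2 fold change of TPM + 1 with CCS1477 for each Mediator gene (x axis), by module. Squares with 95% confidence intervals give the fit over both genotypes, filled at an adjusted p under 0.05, and small circles and triangles give D/F and T/F alone. Med21 lies farthest to the left at -0.99 and Med31 farthest to the right at 0.65.

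The promoters of the members with the largest changes are shown to give the sequence context of these genes, in lower case from base 250 to base 51 before a RefSeq start site, with matches to 6 searched motifs in capitals. They were read from RefSeq on GRCm38.p6, 5′ to 3′ on the strand of the gene. Med21 and Cdk8 had the largest falls.
Med21 (chr6:146642329-146642528, plus strand): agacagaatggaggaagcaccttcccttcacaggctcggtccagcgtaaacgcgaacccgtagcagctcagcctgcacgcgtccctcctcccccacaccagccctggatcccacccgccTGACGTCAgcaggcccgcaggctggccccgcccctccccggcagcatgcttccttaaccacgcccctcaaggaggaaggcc
Cdk8 (chr5:146231000-146231199, plus strand): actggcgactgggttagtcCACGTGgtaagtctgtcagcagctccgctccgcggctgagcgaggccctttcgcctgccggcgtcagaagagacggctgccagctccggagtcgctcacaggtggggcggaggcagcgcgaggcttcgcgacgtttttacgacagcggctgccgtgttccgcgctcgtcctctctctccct
Med31 and Med10 had the largest rises.
Med31 (chr11:72215643-72215842, minus strand): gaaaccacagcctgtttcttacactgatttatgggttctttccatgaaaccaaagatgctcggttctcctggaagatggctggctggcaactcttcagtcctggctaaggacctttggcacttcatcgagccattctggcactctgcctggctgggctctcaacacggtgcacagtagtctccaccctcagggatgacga
Med10 (chr13:69809632-69809831, plus strand): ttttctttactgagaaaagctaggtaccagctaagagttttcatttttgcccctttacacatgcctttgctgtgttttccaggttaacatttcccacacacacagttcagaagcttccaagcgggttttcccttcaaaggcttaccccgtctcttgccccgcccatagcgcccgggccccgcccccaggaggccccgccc
In the Med21 stretch the capitals are TGACGTC, the core of a cyclic AMP response element, with its overlapping reverse complement. In the Cdk8 stretch they are CACGTG, an E-box, which reads the same on both strands. The printed stretches of Med31 and Med10 hold none of the 6 motifs. The 50 bases next to the start are not printed, and there Med21 holds CCAAT or its reverse complement 3 times and Med10 holds CCGGAA or its reverse complement. Med10 has another RefSeq start upstream (chr13:69802120-69802369 before it, plus strand) without any of the motifs, and the start shown is the one whose following bases were found in a GENCODE transcript.

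Promoter entries were found for 28 of the 33 members, and the 250 bases before each start were searched on both strands, counting a gene if any of its starts had a match. TGACGTC was found in Med21 alone (3.57% of the 28 members, against 5.06% of 10622 genes of the table with a promoter entry). CACGTG was found in Cdk8 and Med17 (7.14% against 9.54%). The other motifs were CCGGAA, the core of ETS sites, in 10 members (35.7% against 24.3%), CCAAT in 11 (39.3% against 40.7%), GCATGCG in 3 (10.7% against 5.93%) and ATGGCGG in 0 (against 4.32%). A match describes letters and says nothing of binding. Cdk19, Med8, Med23, Med24 and Med30 had no entry.

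In the middle module Med21 fell and Med31, Med10 and Med19 rose, while the other 5 genes did not pass (4 of 9 called, 44.4% against 45.3% of all genes). Med21 (ENSMUSG00000030291, chromosome 6 from 146642547 to 146650732 in GENCODE vM21 on GRCm38) forms with Med7 the hinge of the middle module and was the most abundant member before treatment. With DMSO it was at 131, 57.2 and 119 TPM in D/F replicates 1 to 3 and at 120.0, 116 and 94.4 TPM in T/F. With CCS1477 it was at 54.3, 33.2 and 52.2 TPM in D/F and at 60.7, 63.0 and 50.7 TPM in T/F. Every treated library lay below every DMSO library of its genotype, and the low D/F replicate 2 fell as well. CCS1477 left 45.4% of the mean DMSO level in D/F and 52.8% in T/F. The log2 fold change over both genotypes was -0.99 (SE 0.20, adjusted p = 0.00203 from limma), lower than that of all but 6.09% of the genes tested. In D/F alone it was -1.07 (adjusted p = 0.108 from limma, 0.0097 with the mouse as a block, and 0.0135 without replicate 2). The T/F value was -0.91 (SE 0.13, adjusted p = 0.00316 from limma). Exons of Med21 overlap on the opposite strand with Tm7sf3 and Gm6654, and whether the quantification used the strand of the reads is not given in the sources used here, so its value is uncertain to that extent.

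Med31 (ENSMUSG00000020801, chromosome 11 from 72211724 to 72215592) encodes the most conserved middle subunit, part of the knob of that module. With DMSO it was at 10.5, 8.95 and 13.1 TPM in D/F and at 9.11, 10.8 and 10.2 TPM in T/F. With CCS1477 it was at 19.8, 21.0 and 18.5 TPM in D/F and at 13.8, 13.9 and 15.4 TPM in T/F. The groups did not overlap, and the gene that was lowest of all members under DMSO rose in all 6 mice. The rise in D/F was 0.83 on the log2 scale (SE 0.18, adjusted p = 0.0348 from limma), and the rise in T/F was 0.48 (SE 0.08, adjusted p = 0.00649 from limma). The D/F call was lost without replicate 1 (adjusted p = 0.291 from limma) and without replicate 3 (adjusted p = 0.227), D/F fits in which no gene of the table passed. The T/F call was lost without T/F replicate 1 (adjusted p = 0.0508 from limma). The D/F call was also lost with median-gene scaling (adjusted p = 0.0642 from limma) and with quantile normalization (adjusted p = 0.0752). Exons of Med31 overlap another gene on the opposite strand.

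Med10 (ENSMUSG00000021598, chromosome 13 from 69802395 to 69816104), another conserved middle subunit, rose to nearly the same level in all D/F mice. With DMSO it was at 29.9, 40.3 and 34.1 TPM in D/F and at 28.8, 38.4 and 39.4 TPM in T/F. With CCS1477 it was at 52.1, 51.4 and 52.2 TPM in D/F and at 51.8, 56.0 and 60.8 TPM in T/F. No treated library reached down to a DMSO library, and the log2 fold change over both genotypes was 0.62 (SE 0.10, adjusted p = 0.00042 from limma). In D/F alone it was 0.58 (adjusted p = 0.0658 from limma, 0.0268 with the mouse as a block). Exons of Med10 overlap those of Gm26819 on the opposite strand.

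Med19 rose by 0.20 on the log2 scale over both genotypes (adjusted p = 0.0162 from limma, 0.191 with median-gene scaling), and it is the gene of a subunit at the hook of the middle module. Its exons overlap those of Tmx2 and Zdhhc5 on the opposite strand. Med1, the subunit that binds nuclear receptors, was at 79.4 to 90.1 TPM with DMSO and at 79.9 to 91.3 TPM with CCS1477, a log2 fold change of 0.03 with a 95% confidence interval from -0.11 to 0.16. Med4, Med7, Med9 and Med26, the subunit that links Mediator to elongation factors, had log2 fold changes from -0.20 to 0.20 and did not pass. With the mouse as a block Med4 and Med26 passed over both genotypes (adjusted p = 0.0307 and 0.00766 from limma), and Med19 and Med26 passed in T/F.

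The kinase module held changes in opposite directions within a pair of interchangeable kinases. Cdk8 (ENSMUSG00000029635, chromosome 5 from 146231230 to 146302874) fell, and Cdk19 (ENSMUSG00000038481, chromosome 10 from 40339564 to 40483818), its paralog, rose. Cdk8 was at 52.8, 42.3 and 57.1 TPM with DMSO and 34.6, 34.1 and 41.4 TPM with CCS1477 in D/F, and at 49.8, 48.8 and 48.7 TPM and then 37.0, 36.4 and 33.8 TPM in T/F. Groups did not overlap in either genotype. The log2 fold change over both genotypes was -0.45 (SE 0.08, adjusted p = 0.00122 from limma).

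Cdk19 was at 23.2, 32.1 and 17.8 TPM with DMSO and 31.4, 36.5 and 27.5 TPM with CCS1477 in D/F, and at 19.0, 19.2 and 19.2 TPM and then 31.2, 32.2 and 32.8 TPM in T/F. It rose in all 6 mice, and in D/F the groups overlapped because replicate 2 was already high with DMSO. Exons of Cdk19 overlap those of Cdk19os on the opposite strand. The log2 fold change of Cdk19 was 0.56 over both genotypes (SE 0.13, adjusted p = 0.00477 from limma), 0.71 in T/F (SE 0.06, adjusted p = 0.000626) and 0.40 in D/F (SE 0.24, adjusted p = 0.319).

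As a share of the summed TPM of the pair, Cdk19 went from 32.5% ± 9.86 to 46.4% ± 5.95 (SD, n = 3) in D/F. In T/F it went from 28.1% ± 0.368 to 47.3% ± 1.73 (SD, n = 3). The share was higher with CCS1477 in 6 of 6 mice, by 16.6 percentage points on average (two-sided exact sign-flip permutation test over mice, p = 0.03125, the smallest that 6 mice allow, and 0.0469 adjusted over the 3 paralog pairs of the module). Within D/F the exact permutation p was 0.2, and within T/F it was 0.1, the smallest that 3 against 3 allow. The summed level moved less: Cdk8 plus Cdk19 was at 74.4 to 76.1 TPM with DMSO and 66.0 to 70.7 TPM with CCS1477 in D/F, and at 68.0 to 68.9 and 66.6 to 68.6 TPM in T/F. The sums overlapped between treatments in T/F and did not overlap in D/F. The paralogs are similar in sequence, and reads shared between them are divided by the quantification, so single values carry that uncertainty.

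Ccnc (ENSMUSG00000028252, chromosome 4 from 21727701 to 21759922), the cyclin that activates both kinases, rose in all 6 mice. With DMSO it was at 35.3, 31.5 and 32.7 TPM in D/F and at 33.7, 37.7 and 36.4 TPM in T/F. With CCS1477 it was at 42.7, 41.7 and 47.9 TPM in D/F and at 46.3, 46.3 and 46.5 TPM in T/F. The log2 fold change over both genotypes was 0.38 (SE 0.06, adjusted p = 0.000603 from limma), and the groups did not overlap. Its exons overlap with Tstd3 on the opposite strand.

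Med13 (ENSMUSG00000034297, chromosome 11 from 86267033 to 86357602), which links the kinase to the core complex, rose as well. With DMSO it was at 70.1, 88.2 and 65.9 TPM in D/F and at 67.2, 70.1 and 75.1 TPM in T/F. With CCS1477 it was at 82.0, 124 and 98.6 TPM in D/F and at 88.2, 90.1 and 100.5 TPM in T/F. The D/F groups overlapped, since replicate 2 with DMSO was above replicate 1 with CCS1477, while all 6 mice rose (log2 fold change 0.41 over both genotypes, SE 0.11, adjusted p = 0.0096 from limma). Exons of Med13 overlap those of Brip1os on the opposite strand.

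Its paralog Med13l (ENSMUSG00000018076, chromosome 5 from 118560679 to 118765438) did not pass. With DMSO it was at 46.2, 74.7 and 45.3 TPM in D/F and at 52.3, 49.8 and 67.0 TPM in T/F. With CCS1477 it was at 50.3, 69.5 and 51.9 TPM in D/F and at 49.8, 49.7 and 57.9 TPM in T/F. These groups overlapped in both genotypes, and the log2 fold change was -0.01 with a 95% confidence interval from -0.32 to 0.30. The share of Med13l in the summed TPM of Med13 and Med13l was lower with CCS1477 in all 6 mice, and dropped by 7.03 percentage points on average (exact sign-flip permutation test, p = 0.03125, 0.0469 adjusted over 3 pairs). It went from 42.1% ± 3.27 to 36.1% ± 1.78 (SD, n = 3) in D/F. The T/F shares were 44.1% ± 2.81 and 36.1% ± 0.520 (SD, n = 3).

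Med12 (ENSMUSG00000079487, chromosome X from 101274030 to 101297465), which activates the kinase, was at 39.8, 51.5 and 38.2 TPM with DMSO and at 36.2, 55.3 and 37.0 TPM with CCS1477 in D/F. In T/F it was at 34.8, 37.9 and 40.1 TPM and then at 40.2, 42.0 and 43.3 TPM. It did not pass, with a log2 fold change of 0.06 and a 95% confidence interval from -0.20 to 0.32. Med12l (ENSMUSG00000056476, chromosome 3 from 59005825 to 59318682) was at 8.59, 24.4 and 8.67 TPM with DMSO and at 6.93, 13.6 and 7.13 TPM with CCS1477 in D/F, and at 7.31, 7.33 and 9.05 TPM and then 6.62, 6.14 and 9.89 TPM in T/F. In 5 of 6 mice its share of the summed TPM of the pair was lower with CCS1477, and over all 6 it dropped by 3.82 percentage points on average (exact sign-flip permutation test, p = 0.0625). The largest step was in D/F replicate 2, from 32.2% to 19.7%. Exons of Med12l overlap those of P2ry12, Igsf10 and Gm43570 on the opposite strand, and Med12 shares exon sequence with Gm21986 on the same strand.

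**Figure D3:**
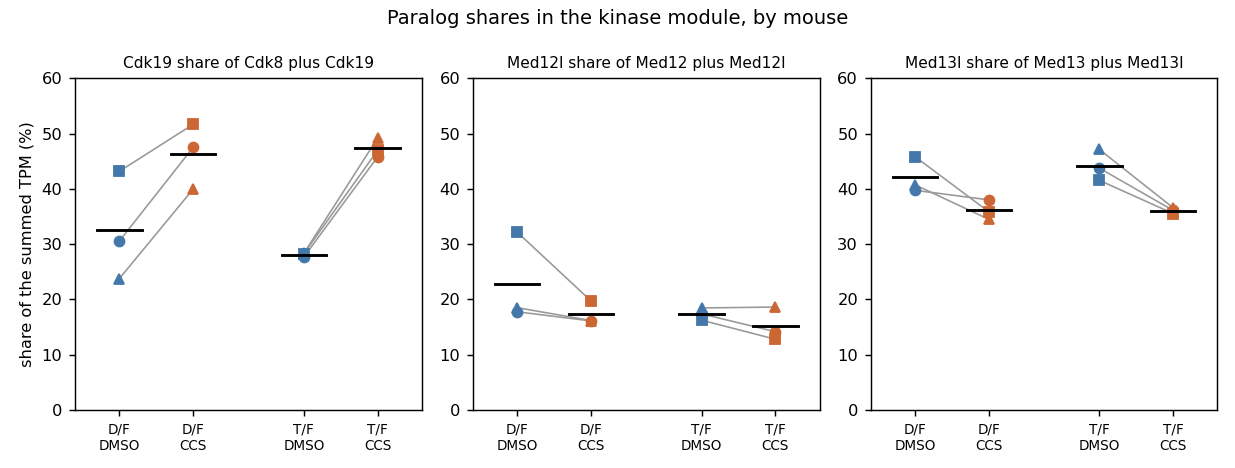
Share of the second paralog in the summed TPM of each kinase module pair (y axis, %), by mouse, with lines joining the DMSO (blue) and CCS1477 (orange) cells of a mouse and bars for group means. The Cdk19 share rises in all 6 mice and the Med13l share falls in all 6.

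The head module, which contacts the polymerase and the general transcription factors, split into rises and falls. Of its 11 genes 7 passed over both genotypes, with 4 higher and 3 lower (63.6% called, against 45.3% of all genes). The falls were those of Med22, Med8 and Med18, with log2 fold changes between -0.31 and -0.30.

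Med22 (ENSMUSG00000015776, chromosome 2 from 26905262 to 26910677), which pairs with Med11 in the head, was at 38.9, 38.7 and 42.8 TPM with DMSO and at 33.2, 30.5 and 36.9 TPM with CCS1477 in D/F. In T/F it was at 41.7, 37.2 and 48.0 TPM and then at 30.7, 31.3 and 34.9 TPM. It fell in every mouse, without overlap of groups (log2 fold change -0.31, SE 0.08, adjusted p = 0.00949 from limma over both genotypes).

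Med8 (ENSMUSG00000006392, chromosome 4 from 118409337 to 118415782), which ties Med18 and Med20 to the rest of the head, was at 85.8, 72.4 and 85.4 TPM with DMSO and at 67.4, 57.5 and 71.2 TPM with CCS1477 in D/F. In T/F it was at 89.0, 90.2 and 80.2 TPM and then at 68.3, 75.1 and 67.9 TPM. All treated libraries were below all DMSO libraries of their own genotype (log2 fold change -0.30, SE 0.08, adjusted p = 0.00864 from limma).

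Med18 (ENSMUSG00000066042, chromosome 4 from 132458731 to 132463921), part of the movable jaw of the head, was at 20.0, 25.2 and 21.6 TPM with DMSO and at 17.6, 18.8 and 18.3 TPM with CCS1477 in D/F. In T/F it was at 24.7, 21.9 and 24.0 TPM and then at 16.7, 19.6 and 19.5 TPM. The log2 fold change was -0.30 (SE 0.08, adjusted p = 0.00777 from limma), again without overlap of groups. In T/F alone its adjusted p from limma was 0.0306, and 0.0505 with the mouse as a block. Med20, which sits beside Med18 in the jaw, did not pass, at 28.9 to 36.7 TPM with DMSO and 31.4 to 41.7 TPM with CCS1477. Med20 shares exon sequence with Gm20517 on the same strand and Kpna2-ps on the opposite strand, and is uncertain for that reason.

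The head genes that rose were Med30, Med27, Med11 and Med28, by 0.37, 0.31, 0.27 and 0.20 on the log2 scale over both genotypes. Of these, Med30, Med27 and Med28 are among the subunits whose place differs between structures. The calls of Med27 and Med28 were lost with median-gene scaling (adjusted p = 0.0904 and 0.291 from limma). Med30, a subunit of metazoan Mediator, went from 34.6 to 35.4 TPM with DMSO to 41.7 to 49.1 TPM with CCS1477 in D/F, and from 38.6 to 43.0 TPM to 50.2 to 55.3 TPM in T/F. It had the smallest adjusted p of the head, 0.000694 from limma. Med27 shares exon sequence with Gm13402 on the opposite strand. Med17, the scaffold of the head, had a log2 fold change of -0.12 (95% confidence interval from -0.27 to 0.03) and did not pass, nor did Med6 at 0.16 and Med29 at -0.08.

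**Figure D4:**
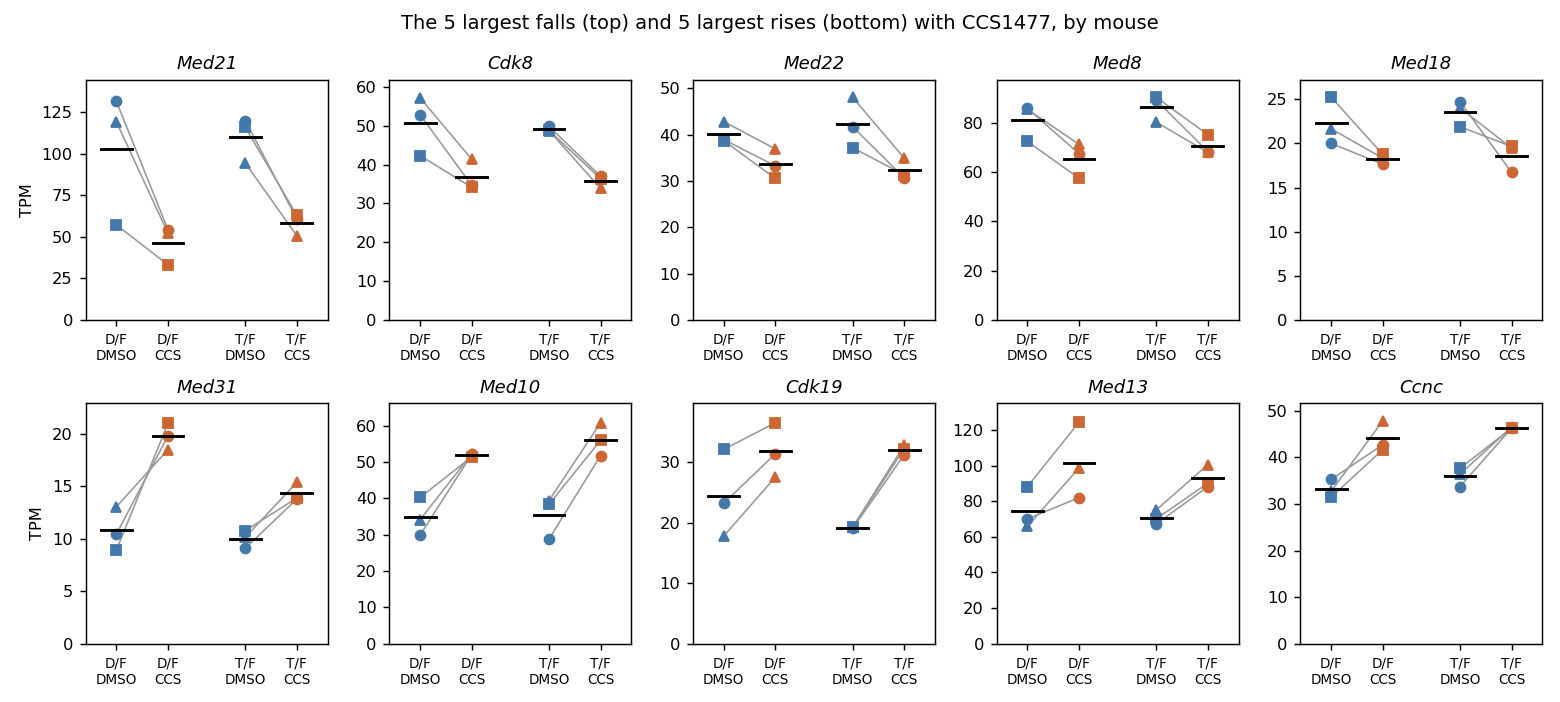
TPM (y axes, linear from 0) of the 5 members with the largest falls (top) and the 5 with the largest rises (bottom) over both genotypes, with lines joining DMSO (blue) and CCS1477 (orange) cells of a mouse, circles, squares and triangles for replicates 1, 2 and 3, and bars for group means. Every line of these 10 genes runs in the same direction in all 6 mice, and the Med21 line of D/F replicate 2 starts at 57.2 TPM, below the 131 and 119 TPM of the other D/F mice.

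Med14 and 2 of the 5 tail genes rose over both genotypes (40% of the tail called, against 45.3% of all genes). No tail gene was called lower, where 19.6% of all genes were. Med14, the backbone, was at 45.1 to 49.9 TPM in all DMSO libraries and at 53.2 to 58.8 TPM in all CCS1477 libraries, a log2 fold change of 0.23 (SE 0.06, adjusted p = 0.00857 from limma). With median-gene scaling its call was lost both over the 2 genotypes (adjusted p = 0.0896 in limma) and within T/F (adjusted p = 0.113), as was that of Med15 in T/F (adjusted p = 0.0768). In the tail, Med15, a target of activators in lipid metabolism, rose by 0.25 (SE 0.06, adjusted p = 0.00531) and Med16 rose by 0.25 (SE 0.08, adjusted p = 0.0208). Med15 was at 40.1 to 45.0 TPM with DMSO and at 48.1 to 54.7 TPM with CCS1477, with no overlap over the 12 libraries. Med23, which transmits MAP kinase signals through Elk1, did not pass without the mouse block, at 10.9 to 13.6 TPM with DMSO and 12.2 to 14.7 TPM with CCS1477 (log2 fold change 0.17, 95% confidence interval 0.02 to 0.32, adjusted p = 0.0686 from limma, 0.0368 with the mouse as a block). Med24 and Med25 had log2 fold changes of 0.01 and 0.04.

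Summed over all 33 genes, Mediator transcripts made up 1310 to 1366 TPM with DMSO and 1326 to 1419 TPM with CCS1477. The sum with CCS1477 was 103% of the DMSO mean in D/F and 104% in T/F, while single members ranged from 45.4% to 183% in D/F. The middle module was at 94.7% of its DMSO level in D/F and 95.7% in T/F, and the kinase module at 109% and 112%. Within the middle module Med21 alone made up 131 of 384 TPM in D/F replicate 1 with DMSO and 54.3 of 354 TPM with CCS1477.

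**Figure D5:**
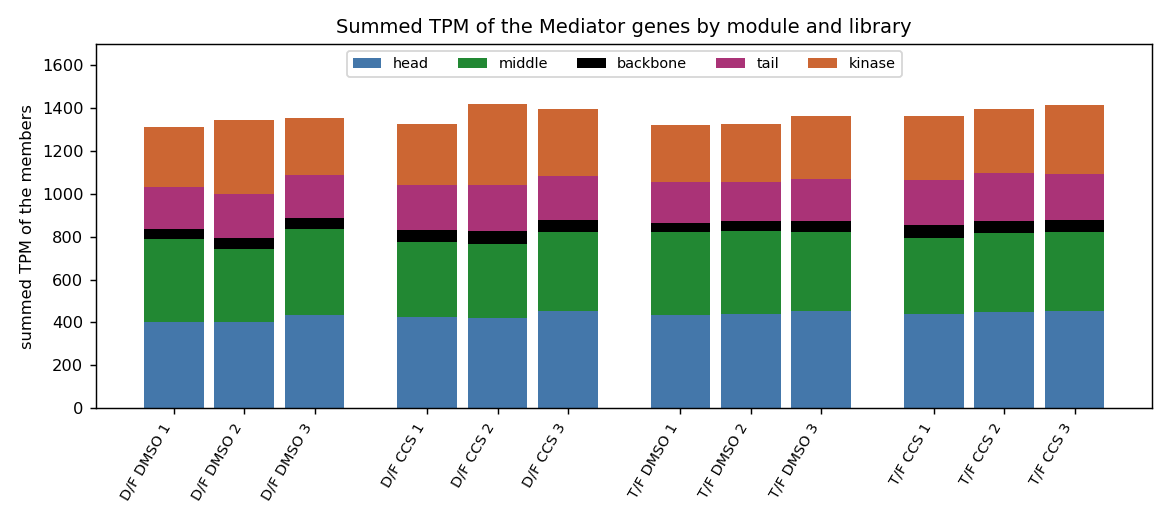
Summed TPM of the Mediator genes by module (stacked bars from 0) in each of the 12 libraries. The total lies between 1310 and 1419 TPM in all of them.

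No difference between the genotypes passed for any member. With DMSO no member passed the comparison of D/F with T/F in limma, a count of 0 where 5 genes (0.0328%) passed, and no member had an unadjusted p under 0.05. The intervals were wide, with a median half-width of 0.33 on the log2 scale. For Med12l the difference was 0.59 with a 95% confidence interval from -0.37 to 1.54, and its D/F mean contains the high value of replicate 2. Responses to CCS1477 were compared by an interaction term in limma, where 0 members and 0% of all genes passed, and 659 genes (4.23%) but 0 members had an unadjusted p under 0.05. With the mouse as a block 0 members passed as well, and Med7 and Cdk19 had an unadjusted p under 0.05 (adjusted p = 0.278 and 0.334 from limma). The largest difference among the 10 members plotted by mouse was that of Med31, which rose by 0.35 less in T/F (95% confidence interval of T/F minus D/F from -0.76 to 0.07). The log2 fold change had the same sign in both genotypes for 26 of 33 members. The share of all genes with the same sign was not computed, so this count says nothing particular to Mediator. These intervals leave room for differences in response that the spread between 3 mice cannot resolve.

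Lists of the factors that Mediator works with were read in the same fits. Of 34 genes for general transcription factors, 20 passed over both genotypes (58.8%, against 45.3% of all genes), with 12 higher and 8 lower and a median log2 fold change of 0.15. In T/F 17 passed (50%, against 43.4% of all genes), 11 higher and 6 lower. In D/F 4 passed (11.8%, against 11.6% of all genes), 3 higher and 1 lower. With the mouse as a block the D/F count was 16 (10 higher, 6 lower), in a fit where 39.3% of all genes passed. The largest falls were in TFIIH, with Gtf2h1 at -0.82 and the kinase Cdk7 at -0.72, followed by Gtf2f2 of TFIIF at -0.60. The largest rises were Gtf2a1 of TFIIA at 0.73 and the TFIID subunits Taf4 at 0.69 and Taf13 at 0.59. Adjusted p-values of these 6 genes were between 8.4e-06 and 0.00885 in limma.

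Of 14 genes for enhancer coactivators and for cohesin and its regulators, which join enhancers to promoters, 10 passed over both genotypes. All 10 were higher (71.4% called, against 45.3% of all genes), and the median log2 fold change of the 14 was 0.31. In T/F 12 passed (85.7%, against 43.4% of all genes) and in D/F 1 (7.14%, against 11.6%), all higher. With the mouse as a block 5 passed in D/F, all higher, where 39.3% of all genes passed. The genes of the drug targets were the largest rises, Crebbp by 0.79 (SE 0.10, adjusted p = 7.54e-05 from limma) and Ep300 by 0.75 (SE 0.07, adjusted p = 8.32e-06), followed by the cohesin subunit Rad21 by 0.70 (SE 0.10, adjusted p = 0.000183). Both lists were chosen with earlier results of these data known, and nothing is read from them about Mediator itself.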

How the data were processed

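RNA-seq was done on 12 libraries in 4 groups of 3 mice. The authors deposited gene-level TPM made with kallisto on mm10 (per the labels), and the study names AltAnalyze for processing. The annotation is not given in the sources used here. The labels name both ribosomal RNA depletion and a stranded mRNA kit. Libraries sum to 914204 to 931697 TPM, and no gene stays below 2.00 TPM in all of them, so low genes were removed before deposit. TPM keeps no read number, so no count model was fitted.

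Values were tested as log2(TPM + 1) with limma 3.58.1 in R 4.3.3 (eBayes, no trend, two-sided) keeping genes whose mean reached 1 TPM in a compared group, and p-values were adjusted over all genes tested. Treated cells were compared with DMSO in either genotype and over both (genotype as covariate), and the difference of responses and the genotypes under DMSO were tested too. Calls needed an adjusted p under 0.05, at any fold change. Fits were tested on simulated data. Paralog shares were compared by exact permutation of groups and of signs over mice. Because the samples of a mouse are paired by the labels, the mouse was also fitted as a block. The correlation of deviations between samples of a mouse was 0.340 to 0.655, against at most 0.132 between mice of a genotype. Between DMSO samples of D/F and T/F mice it reached 0.421.

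Members with the 5 largest falls and 5 largest rises over both genotypes, members called in both genotypes, and the 7 kinase module genes are given in every library. From the lists of partners, up to 3 genes each way and the drug targets are named. Some cell type markers are not reported here. The members, lists and tests were chosen with earlier results of these data known.

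Other settings were a pseudocount of 0.1 TPM, no filter, a filter at 5 TPM, median-gene scaling, quantile normalization, a trend, a shared fit of 4 groups, a 2-fold limit, the genotype comparison in CCS1477 samples, and dropping each mouse. The block without D/F replicate 2 was added after seeing the data. Positions and exon overlaps come from GENCODE vM21, in which 18 members share exon sequence with another gene, and promoters from RefSeq. Besides the overlaps named with the genes, Med7, Med13l, Med15, Med26 and Med29 overlap a gene on the opposite strand. For Med23 and Med24 the other gene is on the same strand.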

Additional observations from a re-analysis of the deposited data

Results flagged for a closer look

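Med7 and Med9, 2 subunits of the middle module, moved in opposite directions in the 2 genotypes in every mouse. They were flagged by this pattern itself, and the share of all genes that show it was not computed. With CCS1477, Med7 was lower in all 3 D/F mice (36.4, 57.3 and 43.0 TPM with DMSO, 35.1, 51.7 and 40.1 TPM with CCS1477) and higher in all 3 T/F mice (39.6, 38.0 and 41.6 TPM, then 43.0, 44.0 and 45.5 TPM). The log2 fold change was larger in T/F than in D/F by 0.25 (SE 0.25, adjusted p = 1.00 for the interaction in limma, and 0.278 with the mouse as a block). Med9 was higher in all 3 D/F mice (17.4, 15.4 and 20.4 TPM, then 22.2, 15.9 and 21.5 TPM) and lower in all 3 T/F mice (22.5, 20.1 and 21.5 TPM, then 21.0, 19.7 and 20.5 TPM). Its difference of log2 fold changes, T/F minus D/F, was -0.21 (SE 0.20, adjusted p = 1.00 from limma, and 0.423 with the mouse as a block). Neither difference passed the test, and dose differs with genotype.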

How the results depend on the processing

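No member changed direction under any setting tried for the fit in which it passed. The count of members that passed in D/F, 1 (Med31), became 2 with a filter at 5 TPM or with a trend, 0 with median-gene scaling or above 2-fold, 8 with the mouse as a replicate block or in the shared fit of 4 groups, 7 with the block and without D/F replicate 2, and 0 to 4 with a mouse left out. With quantile normalization it stayed at 1 but was Med10 in place of Med31. The count in T/F, 15, became 8 in the shared fit of 4 groups, 0 above 2-fold, and 4 to 8 with a mouse left out. Other settings raised it: the filter at 5 TPM added Med6, Med19 and Med26, a trend added Med4, Med6 and Med19, and quantile normalization added Med26. Median-gene scaling dropped Med14 and Med15 in T/F and added Med26. Over both genotypes, the count of 18 became 0 above 2-fold and 13 to 20 with a mouse left out. Med26 was added there by the pseudocount of 0.1 TPM, the filter at 5 TPM and quantile normalization. Shares of all genes are given only for the main, blocked, 2-fold and mouse-left-out fits and for median-gene scaling over both genotypes. Counts from the other fits are not set against all genes. With the mouse as a block the counts in T/F and over both genotypes were 16 and 21 (54.1% and 60.3% of all genes), where Med18 was lost and Med19 and Med26 were gained in T/F, and Med4, Med23 and Med26 were gained over both. Beyond these and the calls in D/F, the block changed no call of a member. The difference of responses and the genotype comparison gave 0 members under every setting, including the block. For the genotype comparison replicate numbers name different mice, and fitting them as a block also gave 0. The paralog shares of Cdk19 (16.6 percentage points) and Med13l (-7.03) passed only over all 6 mice. Within a genotype 3 against 3 cannot reach the threshold, and in D/F the Cdk19 shares also overlapped between treatments (exact permutation p = 0.2). The cause of these changes was not tested, except that fewer mice leave fewer degrees of freedom. Read depth is unknown, so its limits cannot be given.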
